A study of Gallus gallus with 18 samples.

Results

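Rab GTPases and the genes that build and move melanosomes were followed through the retinal pigment epithelium (RPE) of the chicken embryo (Gallus gallus). Members were all genes of the count table whose symbol is that of a numbered RAB gene, the tether gene *MLPH*, the motor genes *MYO5A* and *MYO7A*, *MYRIP*, a synaptotagmin-like gene (SYTL), a Hermansky-Pudlak syndrome gene (HPS) or a BLOC1S gene. The rule used symbols and no measured value, and it found 66 of 18336 genes. All 66 passed the filter on low values, and 59 of them had a mean of 50 or more normalized counts over the 18 libraries. *MYRIP*, *RAB27B*, *RAB1A*, *RAB3D*, *RAB6B*, *BLOC1S1* and *BLOC1S3* were not analysed here. RPE was taken at embryonic day 4 (E4) and embryonic day 5 (E5) in 3 conditions, namely developing RPE, RPE 6 h after surgical removal of the neural retina (6hPR), and RPE 6 h after that surgery with beads carrying the growth factor FGF2 (6hPR + FGF2). Each of the 6 groups holds 3 libraries (n = 3) that pool 3 sheets of RPE apiece, so a replicate is a pool and not an embryo. The design addresses how RPE differs between E4, when it can still form neural retina, and E5. The neural retina was peeled off and mesenchyme was brushed from the basal side before lysis, and no cells were sorted. The study's methods name SPAFAS eggs for sequencing, whereas the sample labels name White Leghorn eggs.

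Rab proteins are small GTPases that cycle between a membrane-bound active form and a cytosolic inactive form, and each marks particular compartments and recruits its own effectors. Melanosomes are lysosome-related organelles that mature from endosomes. The BLOC complexes, whose subunits include the HPS and BLOC1S proteins, carry cargo to them, and BLOC-3 (*HPS1* with *HPS4*) is the exchange factor that activates *RAB32* and *RAB38*. Mature melanosomes carry *RAB27A*, which in melanocytes binds melanophilin (*MLPH*) and through it the actin motor myosin Va (*MYO5A*), and in mammalian RPE works through *MYRIP* with myosin VIIa (*MYO7A*), the motor that takes melanosomes into the apical processes.

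Depth was high for these genes, with 50.7 to 73 M (megareads) on genes per library. Values below are normalized counts, listed in the order of replicates 1, 2 and 3, and not corrected for gene length, so levels are compared between groups and not between genes. Log2 fold changes are from limma on log2(normalized count + 0.5) and are given ± SE. Each p of this limma fit was corrected by the Benjamini-Hochberg method for 18287 genes, and an adjusted p of 0.05 or less made a call. A call was held against up to 9 other ways of fitting the data and against leaving out each library of the groups compared, and where it was lost the highest adjusted p over all of these fits is given. One of the 9 fits has the replicate number as a block, and the calls lost there are listed once, with the other effects of the processing. Another, without the 2 libraries low in *HINTW* described below, was run only for comparisons that use a group holding one of them. Members varied most in E5 developing RPE, where the median SD of the log2 value over the 59 members was 0.182, against 0.0647 to 0.138 in the other 5 groups. For 12 of the 66 members, E5 developing replicate 3 was the highest of all 18 libraries, and the share of all genes is not given here. In replicate 2 of that group, 15 of 22 neural retina marker genes had their highest value. *HINTW*, a gene of the W chromosome that female birds carry, was near 0 in E4 6hPR + FGF2 replicate 3 and in E5 6hPR replicate 3, and the part of these library differences in the results was not tested beyond leaving the libraries out. Of 4 markers of melanocytes and neural crest, *SOX10* was at 10070.5 to 18656 in the 18 libraries, *MC1R* at 18.2 to 415, *KIT* at 175 to 440 and *FOXD3* at 19.3 to 92. None of the 4 was called at E5 against E4. Against developing RPE at E4, *KIT* was called higher in 6hPR, and with FGF2 *SOX10* was called higher and *MC1R* lower. At E5 *FOXD3* was lower in both treatments and *MC1R* with FGF2. In FGF2 against 6hPR, *KIT* was lower at E4 and *MC1R* at E5. All 11 RPE markers were above 0 in every library. In developing, 6hPR and 6hPR + FGF2 RPE, 7, 9 and 9 of them were called higher at E5 (63.6%, 81.8% and 81.8%). The shares of all genes were 10.8%, 11.3% and 16.7%. In developing RPE the RPE markers summed to 522960 to 613615 at E4 and 949546 to 1341055 at E5. In 6hPR they summed to 487783 to 773460 and 1307312 to 1557179, and with FGF2 to 452094.5 to 698819 and 1011080 to 1175677. The part of these sums in the differences of the members was not tested. In such bulk samples fewer cells of a type and less RNA per cell cannot be told apart. In the GRCg7b annotation of RefSeq, 19 of the 65 matched members overlap another protein-coding gene, among them *HPS4*, *MYO5A* and *RAB7B*, and since the strand setting of the counting is not given in the sources used here, reads of such pairs may be shared.

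Between E4 and E5 more members were called higher than lower in each condition. In developing RPE 10 members were called higher at E5 (*RAB38*, *RAB27A*, *RAB29*, *RAB9A*, *RAB32*, *MYO7A*, *RAB21*, *RAB14*, *RAB2A* and *RAB5A*) and 3 lower (*MLPH*, *HPS4* and *RAB39B*), where 10.8% and 11.1% of all genes tested were called in those directions. That is 15.2% of members higher and 4.55% lower. In 6hPR RPE 21 members (31.8%) were higher at E5 and none was lower, against 11.3% and 8.41% of all genes. With FGF2, 21 members (31.8%) were higher and 4 (6.06%) lower, against 16.7% and 12.8%. Under quantile normalization these splits were 18 higher and 4 lower in 6hPR RPE and 18 higher and 9 lower with FGF2. The median log2 fold change of the 66 members was 0.11, 0.05 and 0.09 in the 3 conditions, where that of all genes was 0.000, 0.000 and 0.001. Restricted to the 13109 genes that average at least 50, 13.8%, 14.4% and 21.6% were higher at E5 in the 3 conditions and 14.5%, 11.1% and 16.9% lower. In the developing comparison, the count fell from 13 to 8 without E4 developing replicate 2 and to 6 in a fit of only the groups compared, and with FGF2 it fell from 25 to 16 without either replicate 1 or replicate 2 of the E5 group.

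Markers of other cell types were also called higher or lower at E5. In developing, 6hPR and 6hPR + FGF2 RPE respectively, 5, 0 and 0 of 5 endothelial markers, 6, 4 and 2 of 13 markers of retinal neurons and 5, 1 and 0 of 9 markers of retinal progenitors were higher at E5. With FGF2, 1 endothelial marker (*PECAM1*) and 1 progenitor marker (*HES5*) were lower at E5. Of 10 genes of periocular mesenchyme, 2, 1 and 0 were higher and 3, 4 and 5 lower. Of 7 erythrocyte genes, 0, 0 and 1 were higher and 0, 3 and 0 lower. Their sum in 6hPR RPE was 807170 to 1249468 at E4 and 347370 to 452482 at E5. Of 7 leukocyte markers 1, 1 and 2 were higher, of 5 lens genes 1, 2 and 1, and none of either list was lower. The summed endothelial markers ranged over 17678 to 19183 normalized counts in E4 developing RPE and 24856 to 33750 in E5 developing RPE, and the mesenchyme genes over 82243 to 93711 and 117310 to 181268. Of 6 yolk sac or liver genes, 2, 4 and 0 were higher at E5, and E5 6hPR replicate 3 stood apart, with a sum of 10712 against 4094 and 4263 in the other 2 libraries of its group and 478 to 2571 in the other groups. *ALB* was at 1328 there and at 50.5 to 128 elsewhere. *TTR* is both on this yolk sac or liver list and among the RPE markers. The study places *RBP4*, also on this list, with the retinol metabolism genes elevated in E5 RPE. Against developing RPE, the retinal progenitor markers called higher were 3 in 6hPR and 5 with FGF2 at E4 and 3 and 2 at E5, where 1 and 2 were lower. With FGF2, 4 of the mesenchyme genes were lower than in developing RPE at each stage, and 2 (*COL3A1* and *COL1A2*) were higher at E4 and 0 at E5. The sum of the mesenchyme genes with FGF2 ranged over 112307 to 129488 at E4 and 93744 to 152094 at E5. The part of these markers in the differences of the members was not tested.

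Higher at E5 in all 3 conditions were 7 members, *MYO7A*, *RAB21*, *RAB27A*, *RAB29*, *RAB32*, *RAB38* and *RAB5A*, which is 10.6% of the members, where 3.37% of all genes tested had that pattern. *RAB27A* and *RAB38* kept all 3 calls in every fit, and each of the others lost a call in some fit. From the same libraries, the study already reports *RAB27A* and *RAB38* as raised at E5 in every condition. It reports the same for *PMEL*, *GPR143*, *TYR*, *TYRP1* and *DCT*. No member was lower at E5 in all 3 conditions, a pattern of 3.42% of all genes.

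**Figure D1:**
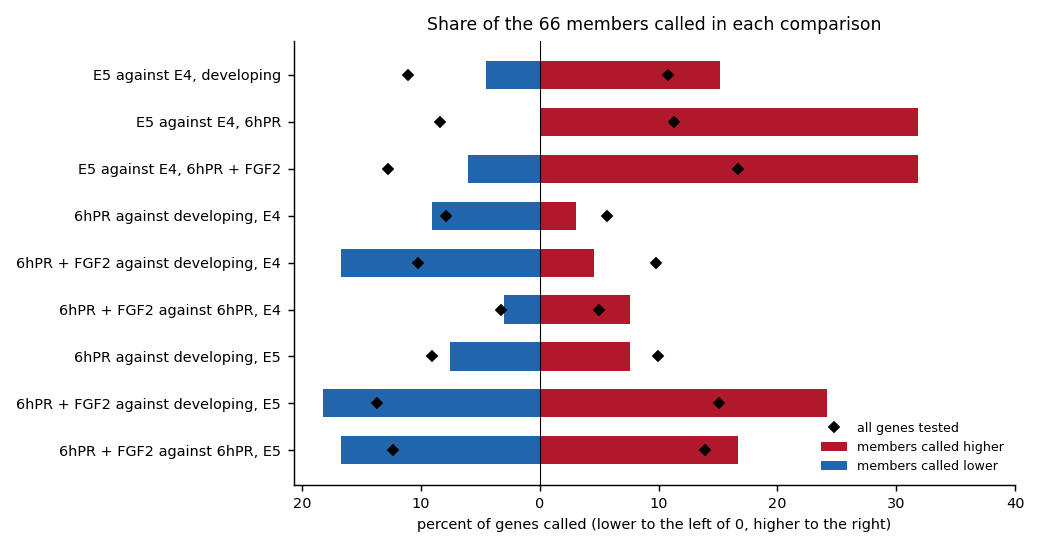
Percent of the 66 members called higher (red, to the right) or lower (blue, to the left) in each of the 9 comparisons of 2 groups, with the percent of all 18287 genes tested as black diamonds. In 6hPR RPE 31.8% of members were higher at E5 and none lower, where all genes gave 11.3% and 8.41%.

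With FGF2 more members were called at E5 than at E4, 28 against 14 in the comparison with developing RPE and 22 against 7 in that with 6hPR. More of all genes tested were also called at E5. Against developing RPE, 15.1% of all genes were higher and 13.7% lower at E5, and 9.82% and 10.2% at E4. Against 6hPR the shares were 13.9% and 12.3% at E5, and 4.99% and 3.28% at E4. Retinectomy alone gave 10 at E5 against 8 at E4, the order turned to 1 against 7 in a fit of only the groups compared, and the E5 count was 4 without the libraries low in *HINTW*. None of these differences in counts was itself tested. At E4, 6hPR RPE had 2 members higher than developing RPE (*RAB7B* and *MYO7A*) and 6 lower (*RAB27A*, *HPS4*, *RAB32*, *RAB9A*, *RAB7A* and *RAB8A*), against 5.68% and 7.90% of all genes, so the 3.03% and 9.09% of members lie near or below the background. TMM scaling gave 1 higher and 6 lower, and the total of 8 fell to 5 without E4 developing replicate 2 or without E4 6hPR replicate 2. With FGF2 at E4, 3 members were higher than in developing RPE (*RAB7B*, *RAB39A* and *RAB12*) and 11 lower (*MLPH*, *RAB27A*, *HPS4*, *RAB32*, *RAB38*, *RAB19*, *RAB9A*, *RAB7A*, *RAB30*, *RAB4A* and *RAB8A*). These are 4.55% and 16.7% of members, against 9.82% and 10.2% of all genes, and the total of 14 fell to 9 without E4 developing replicate 2 and to 8 without E4 6hPR + FGF2 replicate 1. FGF2 against 6hPR at E4 gave 5 higher (*RAB7B*, *RAB12*, *RAB29*, *RAB5A* and *RAB6A*) and 2 lower (*RAB38* and *RAB27A*), against 4.99% and 3.28%, and 5 and 4 under quantile normalization. In a fit of only the 2 groups compared, limma called 0 of the 66 members there, edgeR called 8 and DESeq2 11 over all groups, and the total of 7 fell to 2 without replicate 1 of either group and to 4 without E4 6hPR replicate 3.

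At E5, 6hPR RPE had 5 members higher than developing RPE (*MYO7A*, *BLOC1S2*, *RAB11B*, *RAB35* and *RAB11A*) and 5 lower (*RAB3B*, *RAB31*, *RAB9A*, *RAB8A* and *RAB6A*), 7.58% in each direction against 9.92% and 9.09% of all genes. The total of 10 was 6 without E5 6hPR replicate 2, 5 without its replicate 3, 4 without both libraries low in *HINTW*, 1 in a fit of only the groups compared and 18 in DESeq2. With FGF2 at E5, 16 members were higher and 12 lower than in developing RPE, 24.2% and 18.2% against 15.1% and 13.7% of all genes, and the total of 28 was 13 in a fit of only the groups compared. FGF2 against 6hPR at E5 gave 11 in each direction, 16.7% against 13.9% higher and 12.3% lower, and the total of 22 was 14 without the libraries low in *HINTW*. A difference between the stages in the response itself was called for 1 member in 6hPR, 6 in 6hPR + FGF2 and 1 in the step from 6hPR to 6hPR + FGF2 (1.52%, 9.09% and 1.52% of members, against 2.99%, 5.56% and 2.54% of all genes). In all, 53 of the 66 members (80.3%) were called in at least 1 of the 12 comparisons, as were 63.2% of all genes tested and 77.4% of those that average at least 50. The 13 that were called in none were the BLOC-1 subunits *BLOC1S4* and *BLOC1S5*, the BLOC-3 subunit *HPS1*, the synaptotagmin-like *SYTL1* and *SYTL3*, and *RAB15*, *RAB24*, *RAB26*, *RAB33B*, *RAB37*, *RAB3A*, *RAB40B* and *RAB5C*.

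**Figure D2:**
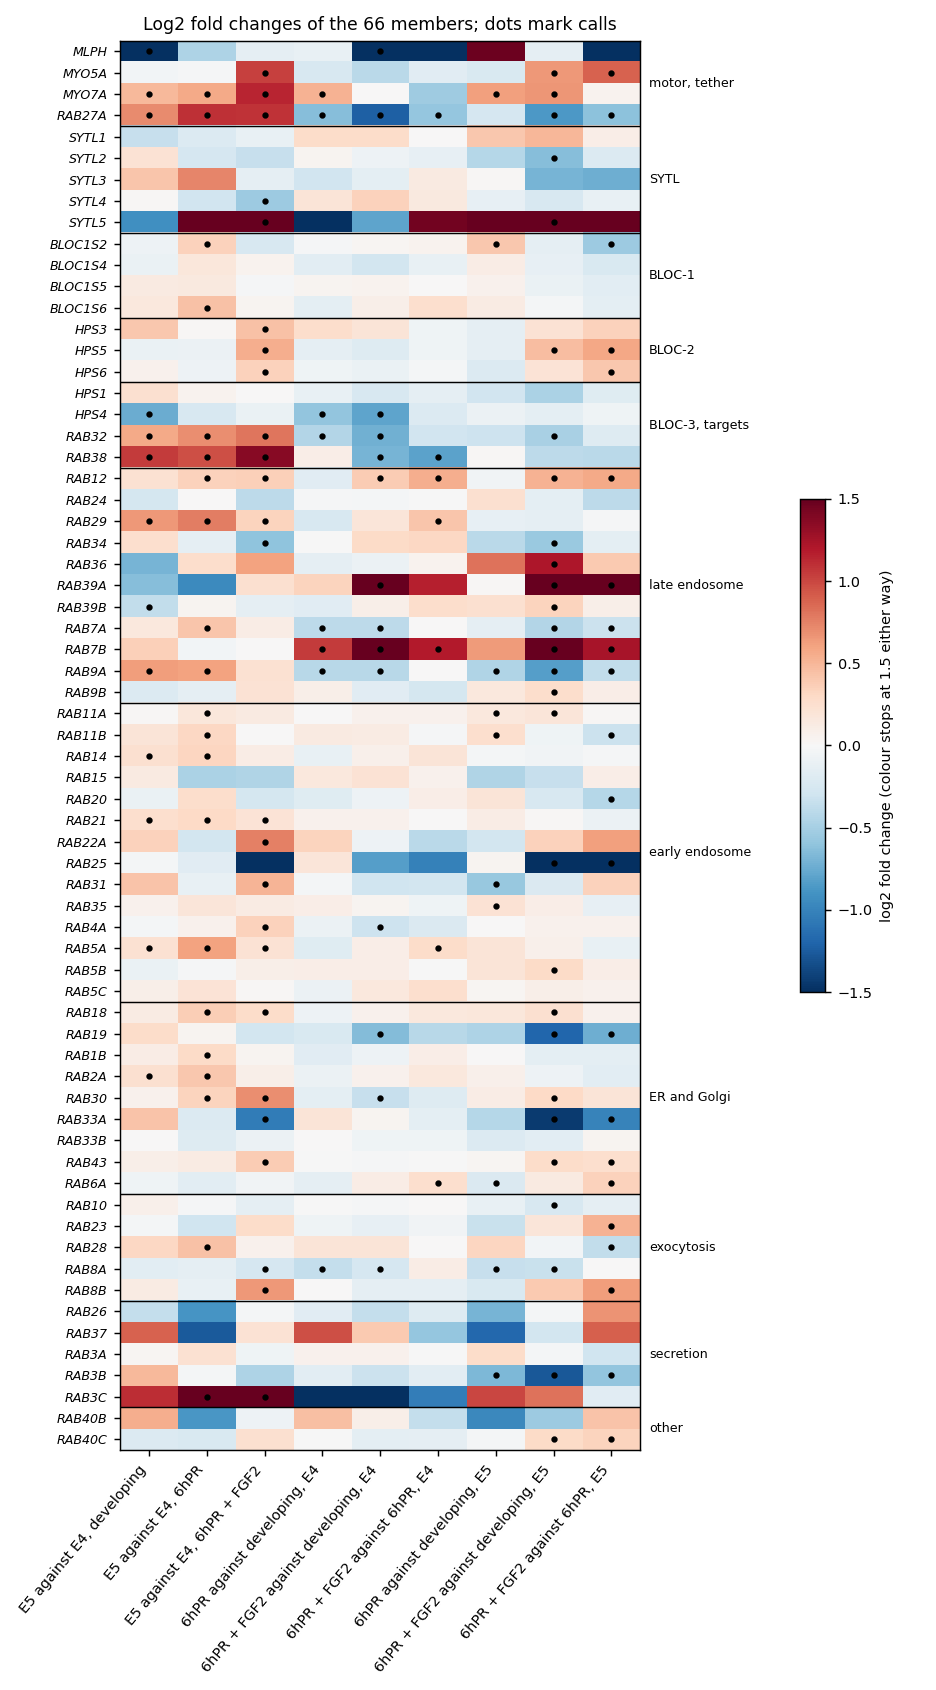
Log2 fold changes of the 66 members (rows, grouped by role) in the 9 comparisons of 2 groups (columns), red for higher and blue for lower in the first group named. Colour stops at 1.5 in either direction, and dots mark calls, of which *RAB27A* had 8 of 9 and *HPS1* none.

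*RAB27A*, the Rab of mature melanosomes, rose with stage, fell with FGF2 at both stages and fell in 6hPR at E4. *RAB27A* stood at 12285, 11603 and 12267 normalized counts in the 3 E4 developing libraries, 8585, 6374 and 8468 in E4 6hPR and 5717, 4369 and 5511 in E4 6hPR + FGF2. At E5 the *RAB27A* counts were 21579.5, 19724 and 18156 in developing RPE, 17947, 15836 and 16214 in 6hPR and 11349.8, 10956 and 10375 in 6hPR + FGF2. At each stage the 3 conditions do not overlap, and every E5 library lay above every E4 library of its condition. The log2 fold change at E5 was 0.71 ± 0.12 (adjusted p = 0.00048) in developing RPE, 1.1 ± 0.12 (adjusted p = 2.4e-05) in 6hPR and 1.08 ± 0.12 (adjusted p = 2.3e-05) with FGF2. Against developing RPE at E4 it was −0.64 ± 0.12 (adjusted p = 0.0019) in 6hPR and −1.22 ± 0.12 (adjusted p = 4.6e-06) with FGF2, and FGF2 against 6hPR was −0.58 ± 0.12 (adjusted p = 0.0062). At E5 the 6hPR difference of −0.25 ± 0.12 (adjusted p = 0.16) was not called, that of FGF2 was −0.86 ± 0.12 (adjusted p = 5.1e-05), and FGF2 against 6hPR was −0.61 ± 0.12 (adjusted p = 0.0016). The interaction, which tests whether a response differs between stages, was 0.39 ± 0.16 (adjusted p = 0.24) for 6hPR and 0.36 ± 0.16 (adjusted p = 0.21) for 6hPR + FGF2, neither called. Of the 8 calls, that of FGF2 against 6hPR at E4 was lost in a fit of only the groups compared (highest adjusted p 0.17), and the other 7 were kept in every fit.

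*RAB38* and *RAB32*, the pair of Rabs that in mice send melanin-making enzymes to maturing melanosomes, also rose with stage. *RAB38* stood at 1356, 1547 and 1641 normalized counts in the 3 E4 developing libraries, 2074, 1426 and 1423 in E4 6hPR and 982, 662 and 1228 in E4 6hPR + FGF2. At E5 the *RAB38* counts were 4071, 3124 and 2417 in developing RPE, 3702, 2938 and 2937 in 6hPR and 2431, 2447 and 2280.2 in 6hPR + FGF2. Within each condition all E5 libraries lay above all E4 libraries, with log2 fold changes of 1.05 ± 0.22 (adjusted p = 0.0025) in developing RPE, 0.97 ± 0.22 (adjusted p = 0.0047) in 6hPR and 1.36 ± 0.22 (adjusted p = 0.00041) with FGF2, each kept in every fit. At E4, *RAB38* was lower with FGF2 than in developing RPE with a log2 fold change of −0.70 ± 0.22 (adjusted p = 0.031), a call lost without replicate 2 or 3 of E4 developing or replicate 1 or 2 of E4 6hPR + FGF2 and in a fit of only the groups compared (highest adjusted p 0.15). It was also lower with FGF2 than in 6hPR, −0.80 ± 0.22 (adjusted p = 0.033), a call lost without replicate 1 or 3 of E4 6hPR or replicate 1 or 2 of E4 6hPR + FGF2 and in a fit of only the groups compared (highest adjusted p 0.23). At E5 the corresponding values of −0.39 ± 0.22 (adjusted p = 0.19) and −0.41 ± 0.22 (adjusted p = 0.17) were not called.

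*RAB32* stood at 1971, 1915 and 1956 normalized counts in the 3 E4 developing libraries, 1613, 1300.4 and 1422 in E4 6hPR and 1192, 1098 and 1258 in E4 6hPR + FGF2. At E5 the *RAB32* counts were 3599.6, 2869 and 2357 in developing RPE, 2499, 2281 and 2251 in 6hPR and 2118, 2106 and 1951 in 6hPR + FGF2. The E5 libraries again lay above the E4 libraries of their condition, with log2 fold changes of 0.57 ± 0.12 (adjusted p = 0.0033), 0.70 ± 0.12 (adjusted p = 0.00092) and 0.80 ± 0.12 (adjusted p = 0.00032) in developing, 6hPR and 6hPR + FGF2 RPE. The call in developing RPE was lost in a fit of only the groups compared (highest adjusted p 0.096). Against developing RPE at E4, *RAB32* fell in 6hPR, a log2 fold change of −0.44 ± 0.12 (adjusted p = 0.027), and in 6hPR + FGF2, −0.72 ± 0.12 (adjusted p = 0.00062). The former was lost without any replicate of E4 developing or replicate 2 or 3 of E4 6hPR (highest adjusted p 0.11), and the latter was kept in every fit. At E5 it was lower in 6hPR + FGF2 than in developing RPE, −0.49 ± 0.12 (adjusted p = 0.0066), a call lost in a fit of only the groups compared (highest adjusted p 0.11). FGF2 against 6hPR was not called for *RAB32* at either stage.

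*HPS4*, which with *HPS1* forms the exchange factor of *RAB32* and *RAB38*, was lower at E5 in developing RPE. *HPS4* stood at 1414, 1573 and 1478 normalized counts in the 3 E4 developing libraries, 946, 1010.3 and 1006 in E4 6hPR and 776, 941 and 876 in E4 6hPR + FGF2. At E5 the *HPS4* counts were 886, 877 and 901 in developing RPE, 815, 836 and 857 in 6hPR and 821, 761 and 828 in 6hPR + FGF2. The 3 E4 developing libraries were the highest of all 18, and the other 5 groups lay between 761 and 1010.3. *HPS4* was lower at E5 in developing RPE, −0.74 ± 0.086 (adjusted p = 3.9e-05), and at E4 it was lower than in developing RPE both in 6hPR, −0.59 ± 0.086 (adjusted p = 0.00036), and with FGF2, −0.79 ± 0.086 (adjusted p = 1.5e-05), all kept in every fit. At E5 the differences of −0.09 ± 0.086 and −0.15 ± 0.086 were not called (adjusted p = 0.53 and 0.23). The interaction of stage with 6hPR + FGF2 was 0.64 ± 0.12 (adjusted p = 0.0083) and was kept in every fit. That with 6hPR, 0.50 ± 0.12 (adjusted p = 0.038), was lost without any replicate of E4 developing or replicate 1 or 3 of E4 6hPR or replicate 1 of E5 developing or replicate 2 or 3 of E5 6hPR and without the 2 libraries low in *HINTW* (highest adjusted p 0.1). Reads of *HPS4* may be shared with *ASPHD1*, whose span overlaps it in the GRCg7b annotation.

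*HPS1*, the partner of *HPS4*, did not pass the test in any comparison. *HPS1* stood at 1912, 1722 and 1724 normalized counts in the 3 E4 developing libraries, 1668, 1821 and 1496 in E4 6hPR and 1445, 1708 and 1404 in E4 6hPR + FGF2. At E5 the *HPS1* counts were 1889, 1576 and 3119 in developing RPE, 1604, 1775 and 1781 in 6hPR and 1585, 1513 and 1441 in 6hPR + FGF2. A single library, E5 developing replicate 3, stood apart at 3119, and the rest lay between 1404 and 1912.

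The BLOC-2 subunits *HPS5*, *HPS6* and *HPS3*, which guide carriers from endosomes to melanosomes, were at their highest group mean in E5 6hPR + FGF2. *HPS5* stood at 2109, 2557 and 2352 normalized counts in the 3 E4 developing libraries, 2089, 1925 and 2376 in E4 6hPR and 2084, 1871 and 2180.3 in E4 6hPR + FGF2. At E5 the *HPS5* counts were 2525, 2263 and 1809 in developing RPE, 2274, 1793 and 1942 in 6hPR and 2911, 2909.7 and 3146 in 6hPR + FGF2. The 3 E5 6hPR + FGF2 libraries were above all others. *HPS5* was higher there than in E4 6hPR + FGF2 by 0.55 ± 0.13 (adjusted p = 0.0047) and than in E5 6hPR by 0.58 ± 0.13 (adjusted p = 0.0036), both kept in every fit. Against E5 developing RPE it was higher by 0.46 ± 0.13 (adjusted p = 0.013), lost without replicate 3 of E5 developing and in a fit of only the groups compared (highest adjusted p 0.087). Its interaction of stage with 6hPR + FGF2 was 0.65 ± 0.18 (adjusted p = 0.045) and was lost without replicate 2 or 3 of E4 developing or any replicate of E4 6hPR + FGF2 or replicate 2 or 3 of E5 developing or any replicate of E5 6hPR + FGF2, under quantile normalization, in a fit of only the groups compared, in edgeR and without the 2 libraries low in *HINTW* (highest adjusted p 0.12).

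*HPS6* stood at 1867, 2125 and 1939.9 normalized counts in the 3 E4 developing libraries, 1893, 1932 and 1834 in E4 6hPR and 2040.1, 1866 and 1652 in E4 6hPR + FGF2. At E5 the *HPS6* counts were 2254, 1843 and 2080.0 in developing RPE, 1780.2, 1848 and 1712 in 6hPR and 2449, 2315 and 2293 in 6hPR + FGF2. The 3 E5 6hPR + FGF2 values exceeded those of every other library. *HPS6* was higher in E5 6hPR + FGF2 than in E5 6hPR, 0.40 ± 0.090 (adjusted p = 0.0047), kept in every fit. Against E4 6hPR + FGF2 it was higher by 0.35 ± 0.090 (adjusted p = 0.0096), lost without the 2 libraries low in *HINTW* (highest adjusted p 0.052). *HPS3* stood at 1072, 1322 and 1361 normalized counts in the 3 E4 developing libraries, 1469.6, 1384 and 1616 in E4 6hPR and 1399, 1306 and 1572 in E4 6hPR + FGF2. At E5 the *HPS3* counts were 1974, 1836 and 1237 in developing RPE, 1647, 1405 and 1478 in 6hPR and 1872, 1956 and 1939.5 in 6hPR + FGF2. *HPS3* was higher at E5 than at E4 with FGF2, 0.44 ± 0.15 (adjusted p = 0.037), a call lost without replicate 1 or 2 of E4 6hPR + FGF2 or any replicate of E5 6hPR + FGF2 and under quantile normalization (highest adjusted p 0.12), and the E5 developing libraries ranged over 1237 to 1974.

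**Figure D3:**
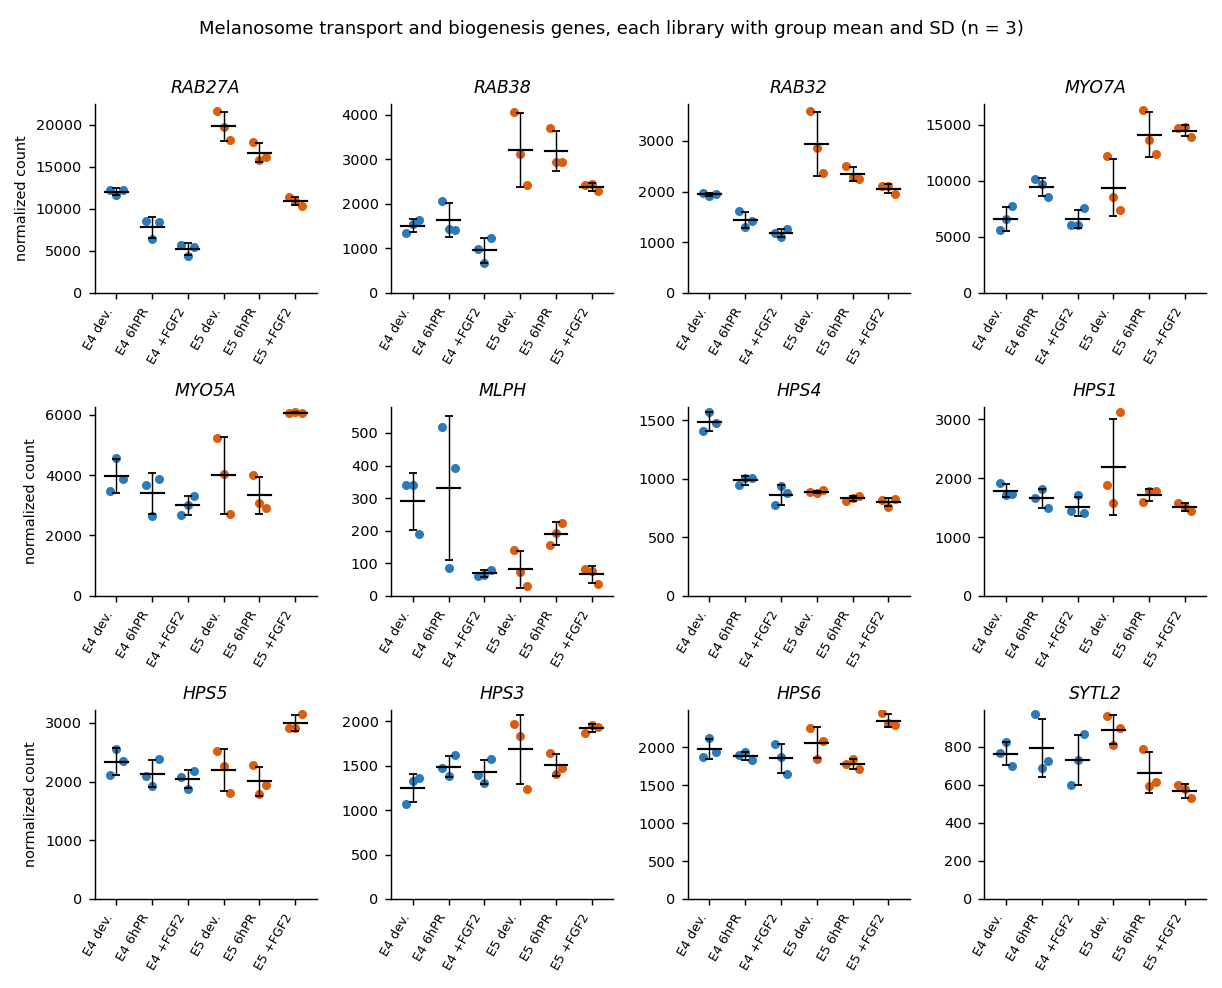
Normalized counts of 12 melanosome transport and biogenesis genes in each of the 18 libraries (dots, blue for E4 and orange for E5), with the mean and SD of each group (n = 3) and axes that start at 0. *RAB27A*, *RAB38* and *RAB32* were higher at E5 in every condition, *HPS4* was highest in E4 developing RPE, and *MLPH* varied widely within groups.

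Of the 4 BLOC-1 subunits measured, which act at endosomal tubules, *BLOC1S2* and *BLOC1S6* were called. Calls in at least 1 of the 12 comparisons were made for 63.2% of all genes tested and 77.4% of those that average at least 50. *BLOC1S2* stood at 2752, 2384 and 2844 normalized counts in the 3 E4 developing libraries, 2420.2, 2899 and 2551 in E4 6hPR and 2845, 2570.0 and 2728 in E4 6hPR + FGF2. At E5 the *BLOC1S2* counts were 2146, 2633 and 2793 in developing RPE, 3141, 3430.4 and 3460.1 in 6hPR and 2144, 2351 and 2411 in 6hPR + FGF2. E5 6hPR held the 3 highest values. *BLOC1S2* fell from there with FGF2, −0.54 ± 0.10 (adjusted p = 0.0017), a call kept in every fit. It was higher in E5 6hPR than in E5 developing RPE, 0.41 ± 0.10 (adjusted p = 0.011), lost in a fit of only the groups compared and without the 2 libraries low in *HINTW* (highest adjusted p 0.11), and than in E4 6hPR, 0.35 ± 0.10 (adjusted p = 0.026), lost without replicate 1 or 3 of E4 6hPR or replicate 2 or 3 of E5 6hPR, in a fit of only the groups compared and without the 2 libraries low in *HINTW* (highest adjusted p 0.11). The interaction of stage with the FGF2 step was −0.59 ± 0.15 (adjusted p = 0.048), lost without replicate 1 or 3 of E4 6hPR or any replicate of E4 6hPR + FGF2 or replicate 2 or 3 of E5 6hPR or any replicate of E5 6hPR + FGF2 and without the 2 libraries low in *HINTW* (highest adjusted p 0.18). *BLOC1S6* was higher at E5 than at E4 in 6hPR RPE, with 1929.9, 1873 and 1969.8 against 1335, 1513 and 1422 normalized counts and a log2 fold change of 0.44 ± 0.083 (adjusted p = 0.0017), kept in every fit.

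The motor gene *MYO7A*, whose protein moves melanosomes in mouse RPE, rose with stage and, except with FGF2 at E4, after retinectomy. *MYO7A* stood at 5577, 6555 and 7728 normalized counts in the 3 E4 developing libraries, 10126, 9715 and 8529 in E4 6hPR and 6104, 6103 and 7540.0 in E4 6hPR + FGF2. At E5 the *MYO7A* counts were 12229, 8540.1 and 7421 in developing RPE, 16306, 13636 and 12380.5 in 6hPR and 14683, 14833 and 13907 in 6hPR + FGF2. With FGF2 the E5 libraries lay far above the E4 libraries, with a log2 fold change of 1.14 ± 0.16 (adjusted p = 0.0002) that was kept in every fit. In 6hPR it was 0.57 ± 0.16 (adjusted p = 0.022), lost without replicate 3 of E4 6hPR or replicate 1 or 2 of E5 6hPR (highest adjusted p 0.096). In developing RPE the stages overlapped, and the call at 0.49 ± 0.16 (adjusted p = 0.045) was lost without replicate 1 or 2 of E4 developing or replicate 1 or 2 of E5 developing and in a fit of only the groups compared (highest adjusted p 0.25). At E4, *MYO7A* was higher in 6hPR than in developing RPE by 0.52 ± 0.16 (adjusted p = 0.044), lost without replicate 1 or 2 of E4 developing or replicate 1 or 2 of E4 6hPR, under TMM scaling, in a fit of only the groups compared and in edgeR (highest adjusted p 0.18). With FGF2 at E4 the difference from developing RPE was −0.00 ± 0.16 (adjusted p = 1) and was not called. At E5 it was higher than in developing RPE in 6hPR, 0.61 ± 0.16 (adjusted p = 0.016), lost without replicate 2 or 3 of E5 developing or replicate 1 of E5 6hPR and in a fit of only the groups compared (highest adjusted p 0.18), and with FGF2, 0.66 ± 0.16 (adjusted p = 0.0068), lost in a fit of only the groups compared (highest adjusted p 0.087). The interaction with 6hPR + FGF2 was 0.66 ± 0.23 (adjusted p = 0.11) and was not called.

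*MYO5A*, the motor recruited by melanophilin, was high in a single group. *MYO5A* stood at 3456, 4579 and 3878 normalized counts in the 3 E4 developing libraries, 3666, 2633 and 3879 in E4 6hPR and 2671, 2996 and 3316 in E4 6hPR + FGF2. At E5 the *MYO5A* counts were 5228, 4034 and 2703 in developing RPE, 4012, 3061 and 2896 in 6hPR and 6048, 6072 and 6038 in 6hPR + FGF2. The 3 E5 6hPR + FGF2 libraries lay close together and above all other libraries. *MYO5A* was higher there than in E4 6hPR + FGF2, 1.02 ± 0.20 (adjusted p = 0.002), and than in E5 6hPR, 0.88 ± 0.20 (adjusted p = 0.0056), both kept in every fit. Against E5 developing RPE, whose libraries ranged over 2703 to 5228, the log2 fold change was 0.65 ± 0.20 (adjusted p = 0.025), lost without replicate 3 of E5 developing or any replicate of E5 6hPR + FGF2 and in a fit of only the groups compared (highest adjusted p 0.15). The interaction of stage with 6hPR + FGF2 was 1.06 ± 0.29 (adjusted p = 0.044), lost without replicate 2 or 3 of E4 developing or any replicate of E4 6hPR + FGF2 or replicate 2 or 3 of E5 developing or any replicate of E5 6hPR + FGF2, under quantile normalization, in a fit of only the groups compared, in edgeR and without the 2 libraries low in *HINTW* (highest adjusted p 0.12). The span of *MYO5A* overlaps *ARPP19* in the GRCg7b annotation.

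*MLPH*, the tether between *RAB27A* and *MYO5A* whose mutation gives the lavender plumage of chickens, had the widest spread between replicates of the 59 members in 4 of the 6 groups. *MLPH* stood at 339, 340.4 and 190.4 normalized counts in the 3 E4 developing libraries, 517, 86.9 and 391 in E4 6hPR and 61.9, 64.1 and 80.9 in E4 6hPR + FGF2. At E5 the *MLPH* counts were 142, 72 and 30.5 in developing RPE, 155, 193 and 225 in 6hPR and 83.4, 76.9 and 37.6 in 6hPR + FGF2. E4 6hPR replicate 2 was far below the other 2 libraries of its group. *MLPH* was lower at E5 in developing RPE, −2.03 ± 0.60 (adjusted p = 0.023), lost without replicate 1 or 2 of E4 developing or replicate 3 of E5 developing and in a fit of only the groups compared (highest adjusted p 0.12). It was lower with FGF2 than in developing RPE at E4, −2.02 ± 0.60 (adjusted p = 0.025), lost without replicate 1 or 2 of E4 developing or replicate 1 or 2 of E4 6hPR + FGF2 and without the 2 libraries low in *HINTW* (highest adjusted p 0.085).

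The synaptotagmin-like genes encode RAB27 effectors that tether vesicles to the plasma membrane. *SYTL2* stood at 767, 823 and 701 normalized counts in the 3 E4 developing libraries, 971, 687 and 723 in E4 6hPR and 598, 729 and 865 in E4 6hPR + FGF2. At E5 the *SYTL2* counts were 959.7, 808 and 898 in developing RPE, 787, 591 and 613 in 6hPR and 600.4, 576 and 529.9 in 6hPR + FGF2. *SYTL2* was lower in E5 6hPR + FGF2 than in E5 developing RPE, −0.64 ± 0.16 (adjusted p = 0.0067), kept in every fit, with no overlap between the groups. *SYTL4* stood at 822, 777 and 645 normalized counts in the 3 E4 developing libraries, 814, 974 and 769.8 in E4 6hPR and 878, 1050.0 and 906 in E4 6hPR + FGF2. At E5 the *SYTL4* counts were 794, 546 and 998 in developing RPE, 642, 731 and 715 in 6hPR and 622, 636 and 668 in 6hPR + FGF2. *SYTL4* was lower at E5 than at E4 with FGF2, −0.55 ± 0.17 (adjusted p = 0.026), a call lost without replicate 2 of E4 6hPR + FGF2 or replicate 1 or 2 of E5 6hPR + FGF2 and without the 2 libraries low in *HINTW* (highest adjusted p 0.097). *SYTL5* was at 0 to 9.71 counts in 15 libraries and reached 42.2, 9.62 and 19.3 counts in E5 6hPR + FGF2, where it was called against developing RPE and against E4, and neither edgeR nor DESeq2 made those calls. The first was lost without replicate 1 or 2 of E5 developing or replicate 1 or 3 of E5 6hPR + FGF2, in a fit of only the groups compared, in edgeR and in DESeq2 (highest adjusted p 0.19), and the second without replicate 1 or 2 of E4 6hPR + FGF2 or replicate 1 or 3 of E5 6hPR + FGF2, in a fit of only the groups compared, in edgeR and in DESeq2 (highest adjusted p 0.24). *SYTL1* (21 to 93.4 counts) and *SYTL3* (22 to 63.8 counts) were low and not called.

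Among the 11 Rabs of late endosomes, lysosomes and autophagy, *RAB7B*, which in human cells acts between late endosomes and the Golgi, had the largest called increase among the 59 members with a mean of 50 or more. *RAB7B* stood at 109, 95.4 and 83.9 normalized counts in the 3 E4 developing libraries, 206, 217 and 175 in E4 6hPR and 583, 467 and 344 in E4 6hPR + FGF2. At E5 the *RAB7B* counts were 137, 83 and 165 in developing RPE, 138, 175 and 297 in 6hPR and 510.5, 424 and 440.4 in 6hPR + FGF2. The E4 6hPR + FGF2 and E5 6hPR + FGF2 libraries were the highest 6 of the 18. At E4, *RAB7B* was higher in 6hPR RPE by 1.05 ± 0.29 (adjusted p = 0.025) and with FGF2 by 2.24 ± 0.29 (adjusted p = 6.4e-05). The former call was lost without replicate 2 or 3 of E4 developing or replicate 1 or 2 of E4 6hPR and under quantile normalization (highest adjusted p 0.092), and the latter was kept in every fit. FGF2 against 6hPR was 1.19 ± 0.29 (adjusted p = 0.019) at E4, lost without replicate 1 or 3 of E4 6hPR or replicate 1 or 2 of E4 6hPR + FGF2 and in a fit of only the groups compared (highest adjusted p 0.092), and 1.24 ± 0.29 (adjusted p = 0.0059) at E5, kept in every fit. At E5 the FGF2 difference from developing RPE was 1.88 ± 0.29 (adjusted p = 0.00016), kept in every fit, and that of 6hPR, 0.64 ± 0.29 (adjusted p = 0.14), was not called.

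*RAB39A*, known from phagosomes of human macrophages, was low throughout and highest with FGF2, at 72.4, 45.9 and 55 counts at E4 and 45.9, 81.7 and 81.4 at E5, against 7.61 to 33.9 in the other 12 libraries. Its log2 fold change against developing RPE was 2.38 ± 0.46 (adjusted p = 0.0012) at E5, kept in every fit, and 1.5 ± 0.46 (adjusted p = 0.032) at E4, lost without replicate 1 or 2 of E4 developing or replicate 1 or 3 of E4 6hPR + FGF2, under quantile normalization, in a fit of only the groups compared and without the 2 libraries low in *HINTW* (highest adjusted p 0.15). Beside *RAB7B* and *RAB39A*, the leukocyte markers *CD74* and *MARCO* were also higher with FGF2 than in developing RPE at both stages. These are 2 of 7 such markers at E4 and, with *PTPRC*, 3 of 7 at E5. *C1QA*, *C1QB*, *LY86* and *CSF1R* were not called in that comparison at either stage. In FGF2 against 6hPR, *CD74* and *MARCO* were higher at both stages, and *CSF1R* was lower at E5. The summed level of the 7 markers at E4 was 3999 to 4310 normalized counts in developing RPE, 4639 to 5264 in 6hPR and 3553 to 6136 in 6hPR + FGF2. At E5 the 7 markers summed to 6213 to 8629 in developing RPE, 10503 to 11282 in 6hPR and 9081 to 12324 in 6hPR + FGF2. None of these markers was at 0 in any library. Their part in the rise of these Rabs was not tested.

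*RAB12*, which sends recycling receptors to lysosomes, was higher with FGF2 at both stages. *RAB12* stood at 3112, 3019 and 3176 normalized counts in the 3 E4 developing libraries, 2834, 2654 and 2777 in E4 6hPR and 4529, 3640.1 and 3984 in E4 6hPR + FGF2. At E5 the *RAB12* counts were 3827, 3875 and 3216 in developing RPE, 3738, 3378 and 3379 in 6hPR and 5403, 5272 and 4913 in 6hPR + FGF2. FGF2 against developing RPE was 0.38 ± 0.088 (adjusted p = 0.0064) at E4 and 0.52 ± 0.088 (adjusted p = 0.0004) at E5, both kept in every fit. FGF2 against 6hPR was 0.57 ± 0.088 (adjusted p = 0.00033) at E5, kept in every fit, and 0.55 ± 0.088 (adjusted p = 0.0015) at E4, lost in a fit of only the groups compared (highest adjusted p 0.072).

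*RAB9A*, a late endosome Rab that BLOC-3 also binds, rose with stage and fell after retinectomy. *RAB9A* stood at 5089, 4558 and 5336 normalized counts in the 3 E4 developing libraries, 3712, 3760.3 and 3694 in E4 6hPR and 4135, 3235 and 3838 in E4 6hPR + FGF2. At E5 the *RAB9A* counts were 8140.0, 6944 and 8173 in developing RPE, 5448, 5506 and 6004 in 6hPR and 4367, 4492 and 4219.7 in 6hPR + FGF2. At E5 it was higher than at E4 in developing RPE, 0.63 ± 0.092 (adjusted p = 0.00021), and in 6hPR RPE, 0.60 ± 0.092 (adjusted p = 0.00033), both kept in every fit, and with FGF2 the difference of 0.23 ± 0.092 (adjusted p = 0.072) was not called. Against developing RPE it fell in 6hPR, with log2 fold changes of −0.42 ± 0.092 (adjusted p = 0.0065) at E4 and −0.45 ± 0.092 (adjusted p = 0.0026) at E5, and with FGF2 at E5, −0.83 ± 0.092 (adjusted p = 7.6e-06), all 3 kept in every fit. The E4 fall with FGF2, −0.42 ± 0.092 (adjusted p = 0.0039), was lost in a fit of only the groups compared (highest adjusted p 0.062). FGF2 against 6hPR at E5 was −0.37 ± 0.092 (adjusted p = 0.0082), lost without the 2 libraries low in *HINTW* (highest adjusted p 0.05).

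*RAB29*, a Rab of the Golgi and stressed lysosomes that recruits the kinase LRRK2 in mammalian cells, rose with stage. *RAB29* stood at 4278, 4149 and 4753 normalized counts in the 3 E4 developing libraries, 3705, 4020.0 and 3410.3 in E4 6hPR and 5558, 4190.5 and 5244 in E4 6hPR + FGF2. At E5 the *RAB29* counts were 7041, 6299 and 7296 in developing RPE, 6187, 6580.2 and 6244 in 6hPR and 6257, 6248 and 6209 in 6hPR + FGF2. E5 against E4 was 0.65 ± 0.098 (adjusted p = 0.00027) in developing RPE and 0.77 ± 0.098 (adjusted p = 8e-05) in 6hPR, both kept in every fit. With FGF2 it was 0.33 ± 0.098 (adjusted p = 0.019), lost without replicate 2 of E4 6hPR + FGF2 or replicate 1 or 2 of E5 6hPR + FGF2 and in a fit of only the groups compared (highest adjusted p 0.1). FGF2 against 6hPR at E4 was 0.42 ± 0.098 (adjusted p = 0.014), lost without replicate 1 or 3 of E4 6hPR or replicate 1 or 3 of E4 6hPR + FGF2, in a fit of only the groups compared and without the 2 libraries low in *HINTW* (highest adjusted p 0.18).

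*RAB7A*, which drives fusion of late endosomes with lysosomes, had 28431, 25401 and 28912 counts in E4 developing RPE, 20517, 22273 and 20366 in E4 6hPR and 22942, 19873 and 20283 in E4 6hPR + FGF2, so that developing RPE was above both treated groups. It was lower than in developing RPE at E4 in 6hPR, −0.39 ± 0.077 (adjusted p = 0.0033), and with FGF2, −0.39 ± 0.077 (adjusted p = 0.0019), and at E5 with FGF2, −0.44 ± 0.077 (adjusted p = 0.00046), all kept in every fit. *RAB36*, which binds an adaptor of dynein, was higher with FGF2 than in developing RPE at E5 by 1.21 ± 0.31 (adjusted p = 0.0083). *RAB36* stood at 138, 154 and 139 normalized counts in the 3 E4 developing libraries, 102, 123 and 174 in E4 6hPR and 119.6, 127 and 159 in E4 6hPR + FGF2. At E5 the *RAB36* counts were 81.5, 152 and 55 in developing RPE, 196, 145 and 132 in 6hPR and 189, 184 and 243 in 6hPR + FGF2. That call was lost in a fit of only the groups compared (highest adjusted p 0.12), and the span of *RAB36* overlaps *BCR*.

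*RAB34* stood at 3938, 3423 and 3510.2 normalized counts in the 3 E4 developing libraries, 3211, 3981 and 3592 in E4 6hPR and 5117, 5084 and 3333 in E4 6hPR + FGF2. At E5 the *RAB34* counts were 3807, 3441 and 6081 in developing RPE, 2852, 3483 and 3455 in 6hPR and 2934, 2636 and 3244 in 6hPR + FGF2. *RAB34*, a Rab of lysosome positioning and cilia, was lower at E5 than at E4 with FGF2, −0.60 ± 0.19 (adjusted p = 0.03), lost without replicate 1 or 2 of E4 6hPR + FGF2 or replicate 1 or 2 of E5 6hPR + FGF2 and in a fit of only the groups compared (highest adjusted p 0.12), and lower with FGF2 than in developing RPE at E5, −0.56 ± 0.19 (adjusted p = 0.042), lost without replicate 3 of E5 developing or any replicate of E5 6hPR + FGF2 and in a fit of only the groups compared (highest adjusted p 0.2). In the latter, E5 developing replicate 3 was far above the others of its group. *RAB39B* stood at 7172, 7107 and 7424 normalized counts in the 3 E4 developing libraries, 6661, 5857 and 6779 in E4 6hPR and 7986, 7509 and 7535 in E4 6hPR + FGF2. At E5 the *RAB39B* counts were 5727, 6341 and 4828 in developing RPE, 6681, 6545 and 6616 in 6hPR and 6705, 6683 and 7729 in 6hPR + FGF2. *RAB39B*, the neuronal paralog of *RAB39A*, was lower at E5 in developing RPE, −0.37 ± 0.090 (adjusted p = 0.0079), lost in a fit of only the groups compared (highest adjusted p 0.1), and higher with FGF2 than in developing RPE at E5 by 0.33 ± 0.090 (adjusted p = 0.013), lost without replicate 3 of E5 developing or replicate 3 of E5 6hPR + FGF2 and in a fit of only the groups compared (highest adjusted p 0.15).

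**Figure D4:**
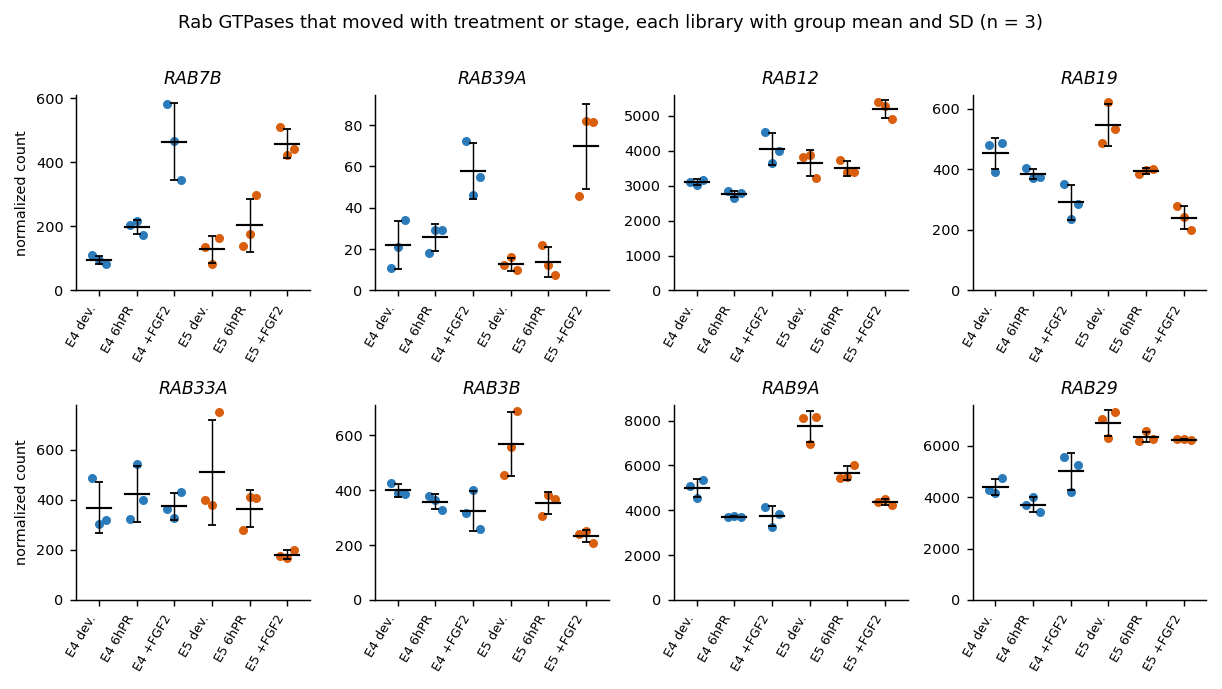
Normalized counts of 8 Rab genes in each of the 18 libraries (dots, blue for E4 and orange for E5), with the mean and SD of each group (n = 3) and axes that start at 0. *RAB7B* and *RAB39A* were highest with FGF2 at both stages, *RAB19* and *RAB3B* had their lowest group means in E5 6hPR + FGF2, and *RAB9A* and *RAB29* were high in E5 developing RPE.

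Of the 14 Rabs of early and recycling endosomes, 3, 5 and 5 were higher at E5 in developing, 6hPR and 6hPR + FGF2 RPE and none was lower. The higher shares are 21.4%, 35.7% and 35.7% against 10.8%, 11.3% and 16.7% of all genes. Among genes that average at least 50, 13.8%, 14.4% and 21.6% were higher. Of all genes, 11.1%, 8.41% and 12.8% were lower. *RAB5A*, which drives the fusion of early endosomes, had 6455, 6825 and 7094 counts in E4 6hPR and 10474, 9893 and 10538 in E5 6hPR, a log2 fold change of 0.60 ± 0.074 (adjusted p = 6.5e-05) kept in every fit. Its other 2 stage differences were smaller, 0.23 ± 0.074 in developing RPE and 0.22 ± 0.074 with FGF2 (adjusted p = 0.036 and 0.037). The call in developing RPE was lost without replicate 1 or 2 of E4 developing or replicate 1 or 2 of E5 developing and in a fit of only the groups compared (highest adjusted p 0.15), and that with FGF2 without replicate 2 or 3 of E4 6hPR + FGF2 or any replicate of E5 6hPR + FGF2, under quantile normalization, in a fit of only the groups compared and without the 2 libraries low in *HINTW* (highest adjusted p 0.16). *RAB21*, which traffics integrins, was higher at E5 in developing RPE by 0.25 ± 0.060 (adjusted p = 0.0071) and in 6hPR by 0.30 ± 0.060 (adjusted p = 0.0021), both kept in every fit. It was also called higher at E5 with FGF2, and that call was not kept in every fit.

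*RAB31* stood at 1568, 1792 and 2019 normalized counts in the 3 E4 developing libraries, 1865, 1701 and 1682 in E4 6hPR and 1296, 1485 and 1573 in E4 6hPR + FGF2. At E5 the *RAB31* counts were 3171, 2392 and 1831 in developing RPE, 1992, 1498 and 1419 in 6hPR and 1972, 2095 and 2113 in 6hPR + FGF2. *RAB31*, a Rab of transport between the Golgi and endosomes, was higher at E5 than at E4 with FGF2, 0.51 ± 0.17 (adjusted p = 0.033), lost without replicate 1 or 2 of E4 6hPR + FGF2 or any replicate of E5 6hPR + FGF2 (highest adjusted p 0.12). It was lower in 6hPR than in developing RPE at E5, −0.57 ± 0.17 (adjusted p = 0.026), although the groups overlapped, and this was lost without replicate 1 or 2 of E5 developing or replicate 2 or 3 of E5 6hPR, in a fit of only the groups compared and without the 2 libraries low in *HINTW* (highest adjusted p 0.25). *RAB11B* stood at 18870.3, 17653 and 18744 normalized counts in the 3 E4 developing libraries, 19680.1, 21638 and 19501 in E4 6hPR and 21116, 19688 and 19224 in E4 6hPR + FGF2. At E5 the *RAB11B* counts were 20037, 20743 and 22363 in developing RPE, 22813, 25012 and 27562 in 6hPR and 19888, 20732 and 19810.1 in 6hPR + FGF2. *RAB11B*, a Rab of recycling endosomes, was higher in E5 6hPR than in E5 developing RPE, 0.25 ± 0.074 (adjusted p = 0.026), lost without replicate 1 or 2 of E5 developing or replicate 2 or 3 of E5 6hPR, in a fit of only the groups compared and without the 2 libraries low in *HINTW* (highest adjusted p 0.19), and fell with FGF2 against 6hPR at E5, −0.32 ± 0.074 (adjusted p = 0.0065), kept in every fit. *RAB25*, its epithelial relative, was at 12.2 to 36 counts in E5 developing and 6hPR RPE and at 9.37, 6.73 and 0 in E5 6hPR + FGF2. *RAB25* was called lower with FGF2 than in developing RPE, a call lost without replicate 2 of E5 developing or replicate 3 of E5 6hPR + FGF2 and in a fit of only the groups compared (highest adjusted p 0.21), and than in 6hPR, a call lost without replicate 1 or 3 of E5 6hPR or replicate 3 of E5 6hPR + FGF2, in a fit of only the groups compared and without the 2 libraries low in *HINTW* (highest adjusted p 0.14).

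Among the 9 Rabs of the ER and Golgi, *RAB19* and *RAB33A* fell with FGF2 at E5. *RAB19* stood at 481, 392 and 486 normalized counts in the 3 E4 developing libraries, 404, 372 and 376 in E4 6hPR and 352, 236 and 285 in E4 6hPR + FGF2. At E5 the *RAB19* counts were 486, 624 and 533 in developing RPE, 385, 399 and 402 in 6hPR and 278, 244 and 200.4 in 6hPR + FGF2. *RAB19*, linked to cilium formation in mammalian cells, was lower with FGF2 than in developing RPE at E5, −1.19 ± 0.16 (adjusted p = 6e-05) and than in 6hPR, −0.73 ± 0.16 (adjusted p = 0.0047), both kept in every fit. At E4 it was lower with FGF2 than in developing RPE, −0.65 ± 0.16 (adjusted p = 0.01), lost without replicate 2 of E4 6hPR + FGF2 and in a fit of only the groups compared (highest adjusted p 0.07). The interaction of −0.54 ± 0.23 (adjusted p = 0.18) was not called.

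*RAB33A* stood at 486, 304 and 317 normalized counts in the 3 E4 developing libraries, 322, 543 and 399 in E4 6hPR and 364, 325 and 433 in E4 6hPR + FGF2. At E5 the *RAB33A* counts were 398, 380.1 and 749.9 in developing RPE, 278, 409.6 and 406 in 6hPR and 176, 165 and 199 in 6hPR + FGF2. *RAB33A*, a Golgi Rab that in neurons also takes part in exocytosis, had its 3 lowest values in E5 6hPR + FGF2. FGF2 against developing RPE at E5 was −1.43 ± 0.27 (adjusted p = 0.001) and E5 against E4 with FGF2 was −1.05 ± 0.27 (adjusted p = 0.01), both kept in every fit, although E5 developing replicate 3 alone was at 749.9. FGF2 against 6hPR at E5 was −1.0 ± 0.27 (adjusted p = 0.015), lost without replicate 2 or 3 of E5 6hPR or replicate 2 of E5 6hPR + FGF2 and without the 2 libraries low in *HINTW* (highest adjusted p 0.068). The interaction of stage with 6hPR + FGF2 was −1.47 ± 0.38 (adjusted p = 0.037), lost without replicate 2 or 3 of E4 developing or replicate 1 or 3 of E4 6hPR + FGF2 or replicate 3 of E5 developing or any replicate of E5 6hPR + FGF2, in a fit of only the groups compared and without the 2 libraries low in *HINTW* (highest adjusted p 0.1).

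*RAB30*, another Golgi Rab, moved in opposite directions at the 2 stages in 6hPR + FGF2 against developing RPE. *RAB30* stood at 2382, 2337 and 2385 normalized counts in the 3 E4 developing libraries, 2096, 2059 and 2237 in E4 6hPR and 1721, 1844 and 2069 in E4 6hPR + FGF2. At E5 the *RAB30* counts were 2444, 2649 and 2352 in developing RPE, 2715, 2694 and 2631 in 6hPR and 3380.5, 3162 and 2646 in 6hPR + FGF2. In that comparison it fell at E4, −0.34 ± 0.090 (adjusted p = 0.015), and rose at E5, 0.30 ± 0.090 (adjusted p = 0.022), where E5 6hPR + FGF2 replicate 3 overlapped the developing group. FGF2 against 6hPR was not called for *RAB30* at either stage. The interaction of stage with 6hPR + FGF2 was 0.64 ± 0.13 (adjusted p = 0.011) and was kept in every fit, as was E5 against E4 with FGF2, 0.70 ± 0.090 (adjusted p = 8.8e-05). The E4 call was lost without replicate 1 of E4 6hPR + FGF2 (highest adjusted p 0.076) and the E5 call was lost without replicate 3 of E5 developing or replicate 1 or 2 of E5 6hPR + FGF2 and in a fit of only the groups compared (highest adjusted p 0.14).

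*RAB6A*, which organizes Golgi transport, was higher with FGF2 than in 6hPR at both stages, 0.25 ± 0.060 (adjusted p = 0.018) at E4 and 0.35 ± 0.060 (adjusted p = 0.00072) at E5. The E4 call was lost without replicate 1 of E4 6hPR or replicate 1 of E4 6hPR + FGF2 and in a fit of only the groups compared (highest adjusted p 0.13). Its group means in developing, 6hPR and 6hPR + FGF2 RPE were 3292, 2996 and 3569 at E4 and 3125, 2688 and 3437 at E5. In 6hPR *RAB6A* was called lower than in developing RPE at E5, a call not kept in every fit. With FGF2 against developing RPE it was not called at either stage. *RAB18*, a Rab of the ER and lipid droplets, was higher at E5 in 6hPR, 0.37 ± 0.064 (adjusted p = 0.00076), and with FGF2, 0.28 ± 0.064 (adjusted p = 0.0046), both kept in every fit.

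Of the 5 Rabs of polarized exocytosis and the cilium, *RAB8A*, which drives both, was lower after retinectomy. It had 15307, 15325 and 15228 counts in E4 developing RPE, 11894, 11295 and 12675 in E4 6hPR, 13776, 12682 and 14590.4 in E5 developing RPE and 10649, 10553 and 11225 in E5 6hPR, with no overlap at either stage. The log2 fold change was −0.36 ± 0.068 (adjusted p = 0.0026) at E4, kept in every fit, and −0.34 ± 0.068 (adjusted p = 0.0024) at E5, lost in a fit of only the groups compared (highest adjusted p 0.055). *RAB8B* stood at 1309, 1512 and 1647 normalized counts in the 3 E4 developing libraries, 1736, 1285 and 1472 in E4 6hPR and 1201, 1490.3 and 1372 in E4 6hPR + FGF2. At E5 the *RAB8B* counts were 1910.1, 1688 and 1308 in developing RPE, 1549, 1299 and 1290.4 in 6hPR and 2238, 2039.5 and 2095 in 6hPR + FGF2. *RAB8B*, its paralog, was higher in E5 6hPR + FGF2 than in E4 6hPR + FGF2, 0.65 ± 0.15 (adjusted p = 0.0039), and than in E5 6hPR, 0.63 ± 0.15 (adjusted p = 0.0056), both kept in every fit.

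Of the 5 Rabs of regulated secretion, *RAB3B* and *RAB3C*, both known from secretory vesicles, were called. Of all genes tested, 63.2% were called in at least 1 of the 12 comparisons. *RAB3B* stood at 427, 389 and 385 normalized counts in the 3 E4 developing libraries, 380.5, 364 and 328 in E4 6hPR and 316, 400.1 and 257 in E4 6hPR + FGF2. At E5 the *RAB3B* counts were 457, 558 and 688 in developing RPE, 306, 384 and 366 in 6hPR and 242, 250.0 and 207 in 6hPR + FGF2. *RAB3B* fell with FGF2 against developing RPE at E5, −1.27 ± 0.18 (adjusted p = 7e-05), kept in every fit. It also fell in 6hPR, −0.67 ± 0.18 (adjusted p = 0.014), lost without replicate 1 of E5 6hPR and in a fit of only the groups compared (highest adjusted p 0.12), and with FGF2 against 6hPR, −0.59 ± 0.18 (adjusted p = 0.023), lost without replicate 2 or 3 of E5 6hPR or replicate 1 or 3 of E5 6hPR + FGF2 and without the 2 libraries low in *HINTW* (highest adjusted p 0.09). The interaction of stage with 6hPR + FGF2 was −0.94 ± 0.25 (adjusted p = 0.04), lost without any replicate of E4 developing or replicate 1 or 2 of E4 6hPR + FGF2 or replicate 2 or 3 of E5 developing or any replicate of E5 6hPR + FGF2 and in a fit of only the groups compared (highest adjusted p 0.096). *RAB3C* was at 0 to 14.9 counts in the 9 E4 libraries and at 8.0 to 61.8 in the 9 E5 libraries, and was called higher at E5 in 6hPR and with FGF2. The latter call was kept in every fit and the former was lost without replicate 3 of E4 6hPR or replicate 1 or 2 of E5 6hPR and in a fit of only the groups compared (highest adjusted p 0.11).

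Some calls were shared by both stages. In 6hPR against developing RPE, *MYO7A* was higher and *RAB8A* and *RAB9A* were lower at both, 1.52% and 3.03% of members against 3.18% and 3.80% of all genes. In 6hPR + FGF2 against developing RPE, *RAB12*, *RAB39A* and *RAB7B* were higher (4.55% against 6.04%), and *RAB19*, *RAB27A*, *RAB32*, *RAB7A*, *RAB8A* and *RAB9A* were lower (9.09% against 5.49%). In the step from 6hPR to 6hPR + FGF2, *RAB12*, *RAB6A* and *RAB7B* were higher (4.55% against 3.22%) and *RAB27A* was lower (1.52% against 1.81%).

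Other genes of the same pathways were counted from lists, whose shares are read against the 10.8%, 11.3% and 16.7% of all genes that were higher at E5 in developing, 6hPR and 6hPR + FGF2 RPE and the 11.1%, 8.41% and 12.8% that were lower. Of 23 other melanosome biogenesis genes tested, 8, 10 and 9 were higher (34.8%, 43.5% and 39.1%) and 0, 1 and 1 were lower, with *PMEL*, *TYR*, *TYRP1*, *DCT* and *GPR143* higher in all 3 and a median log2 fold change of 0.17, 0.30 and 0.09. Against developing RPE at E4, 0 were higher and 3 lower in 6hPR (13% lower against 7.90% of all genes), and 1 was higher and 6 lower with FGF2 (4.35% and 26.1% against 9.82% and 10.2%). At E5, 2 were higher and 3 lower in 6hPR (8.70% and 13% against 9.92% and 9.09%), and 0 were higher and 6 lower with FGF2 (26.1% lower against 13.7%). In FGF2 against 6hPR, 0 of these genes were higher at either stage. In that step 3 were lower at E4 (13% against 3.28% of all genes) and 8 at E5 (34.8% against 12.3%). Of 57 genes of the Rab cycle (exchange factors, GTPase-activating proteins, escorts and prenylation enzymes), 8, 10 and 26 were higher at E5 in the 3 conditions (14.0%, 17.5% and 45.6%) and 4, 3 and 1 lower (7.02%, 5.26% and 1.75%), with medians of 0.10, 0.05 and 0.32, so that in developing RPE the shares lie near those of all genes. Of 24 Rab effectors 5, 3 and 14 were higher (20.8%, 12.5% and 58.3%) and 0, 0 and 1 lower, with medians of 0.19, 0.03 and 0.37. With FGF2 against 6hPR at E5, where 13.9% of all genes were higher and 12.3% lower, 16 of the Rab cycle genes were higher (28.1%) and 3 lower (5.26%), and 7 of the effectors were higher (29.2%) and 2 lower (8.33%), with medians of 0.17 and 0.29. In the same step at E4, where 4.99% of all genes were higher and 3.28% lower, 2 of the Rab cycle genes were higher (3.51%) and 1 lower (1.75%), and 0 of the effectors were higher and 1 lower (4.17%). *MITF*, the transcription factor of pigment genes, was at 5303, 6311 and 6589 counts in E4 developing, 2592, 1259 and 2584 in E4 6hPR and 1254, 955 and 1317 in E4 6hPR + FGF2, and at 8370.0, 6594 and 5036, 3334, 2420.5 and 2042 and 2917, 2848 and 2873 in the same groups at E5. Its treated libraries lay below its developing libraries at both stages. Of the 6 regulators tested, *TFEC* was also lower than in developing RPE, with FGF2 at both stages and in 6hPR at E5. Against developing RPE, *OTX2* was higher in 6hPR at E5, *PAX6* in both treatments at E5 and *SOX10* with FGF2 at E4. In FGF2 against 6hPR, *OTX2* was lower at both stages. At E5 against E4, *OTX2* was higher in 6hPR and with FGF2, *MITF* with FGF2, and *PAX6* was lower in developing RPE. In developing RPE *OTX2* was at 18238, 17908 and 21960 at E4 and 24152, 21239 and 24140 at E5, and was not called. The study, which tested with DESeq2, reports *OTX2* as enriched at E5 in every condition. The part of these regulators in the levels of the members was not tested.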

How the data were processed

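Bulk mRNA sequencing of RPE was made from 6 groups of 3 libraries. For the deposited table the authors used Cutadapt with Trim Galore for trimming, STAR in 2-pass mode on GRCg6a and StringTie on Ensembl release 101 for counts, removed genes under 10 raw counts and scaled by DESeq2 size factors. Versions are not given in the sources used here. The deposited values are thus a signal, counts divided by a size factor, and with the factor multiplied back 100% of values were whole within 1e-06.

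A sum of at least 10 over the 18 libraries was required, which 18287 of 18336 genes met. limma 3.58.1 in R 4.3.3, with a trend of variance on mean, was fitted to log2(value + 0.5) with a mean for each group, with 9 comparisons of 2 groups and 3 interactions. Each p was adjusted by Benjamini-Hochberg over all genes and called at 0.05 or less. The labels do not say whether pools of a group come from separate days or hatches, so p-values measure only the spread between these samples. An exact permutation test of 3 against 3 cannot go below p = 0.1 and was not used. Depth is 50.7 to 73 M reads per library, and 0 in a library allows up to 3 counts.

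Alternatives were a pseudocount of 5, no filter, TMM, quantile normalization, the replicate number as a block, edgeR 4.0.16 and DESeq2 1.42.0 on whole reads, a fit restricted to the groups compared, both libraries low in *HINTW* left out, and each replicate left out. Values in every library are given for a core set (*RAB27A*, *MLPH*, *MYO5A*, *MYO7A*, *SYTL2*, *SYTL4*, *RAB32*, *RAB38* and the HPS genes) and, in each comparison, for the 3 largest called increases and 3 largest decreases with a mean of 50 or more. Every member with a called interaction is named, and other members were named after their values were seen. The members and lists were chosen with earlier results of these data known. Overlapping genes were taken from RefSeq's GRCg7b table by symbol (65 of 66 matched), for names only.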

Additional observations from a re-analysis of the deposited data

Results flagged for a closer look

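The effect of a treatment differed between E4 and E5, by the interaction term of the limma fit, for 7 members in 8 tests. For 6hPR, 6hPR + FGF2 and the FGF2 step these are 1.52%, 9.09% and 1.52% of members. The shares of all genes tested were 2.99%, 5.56% and 2.54%. Given as the log2 difference ± SE of the responses, E5 minus E4, *HPS4* differed for 6hPR (0.50 ± 0.12, adjusted p = 0.038) and for 6hPR + FGF2 (0.64 ± 0.12, adjusted p = 0.0083). It fell with both treatments at E4 and was not called in either at E5, and the call for 6hPR was lost without most of the libraries left out one by one, as given with the gene. In 6hPR + FGF2 against developing RPE, *RAB30* fell at E4 and rose at E5 (0.64 ± 0.13, adjusted p = 0.011). The interactions of *HPS4* and *RAB30* with 6hPR + FGF2 were called in every alternative and with each library left out.

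The other interactions with 6hPR + FGF2 were those of *MYO5A* (1.06 ± 0.29, adjusted p = 0.044) and *HPS5* (0.65 ± 0.18, adjusted p = 0.045), both higher in E5 6hPR + FGF2 than in any other group, and those of *RAB33A* (−1.47 ± 0.38, adjusted p = 0.037) and *RAB3B* (−0.94 ± 0.25, adjusted p = 0.04), which had their lowest group means there. *BLOC1S2* differed in the step from 6hPR to 6hPR + FGF2 (−0.59 ± 0.15, adjusted p = 0.048). Each of these 5 lost its call without some libraries, as given with each gene.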

How the results depend on the processing

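Of the 156 calls of members in the 12 comparisons, 72 were kept under every alternative and with each library left out, and none changed sign. A fit of only the groups compared lost 58, leaving out the 2 libraries low in *HINTW* 34, the replicate block 17, quantile normalization 13, edgeR 6, TMM 3 and DESeq2 2. No filter and a pseudocount of 5 lost none. Leaving out single libraries ended 70 of the calls in at least 1 case. Of the 636 tests of members that were not called, 108 were called under some setting.

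Counts of members called moved by over 1.5 times in these cases. In a fit of only the groups compared there were 6 in place of 13 for E5 against E4 in developing RPE, 0 in place of 7 for FGF2 against 6hPR at E4, 1 in place of 10 for 6hPR against developing RPE at E5, 13 in place of 28 for 6hPR + FGF2 against developing RPE at E5, 2 in place of 6 for the interaction with 6hPR + FGF2, and 11 in place of 1 for the interaction with the FGF2 step. With DESeq2 they were 11 for FGF2 against 6hPR at E4, 18 for 6hPR at E5, and 4, 11 and 18 for the interactions with 6hPR, 6hPR + FGF2 and the FGF2 step. Without the 2 libraries low in *HINTW* they were 4 for 6hPR at E5, 14 in place of 22 for FGF2 against 6hPR at E5, and 0 for the interactions with 6hPR and with the FGF2 step. Quantile normalization gave 2 for the latter, and split the 6 interactions with 6hPR + FGF2, 4 higher and 2 lower, into 2 higher and 3 lower. The causes were not tested.

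With each replicate left out in turn, the counts ranged over 8 to 19, 15 to 23 and 16 to 23 for E5 against E4 in developing, 6hPR and 6hPR + FGF2 RPE. They ranged over 5 to 7, 8 to 13 and 2 to 9 at E4 and 5 to 15, 20 to 31 and 15 to 24 at E5 for 6hPR against developing, 6hPR + FGF2 against developing and 6hPR + FGF2 against 6hPR. For the interactions the ranges were 0 to 2, 2 to 11 and 0 to 11 for 6hPR, 6hPR + FGF2 and the FGF2 step.

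Replicate numbers of different groups share only a number: same-numbered deviations correlated from −0.23 to 0.29, and in no comparison did all 3 exceed 0.1. With the replicate block, 0, 3 and 0 interactions were called in place of 1, 6 and 1, and every other count moved by less than 1.5 times. The calls lost under the block were those of *HPS3* at E5 against E4 with FGF2, *MYO7A* at E5 against E4 in developing RPE and in 6hPR at E4, *RAB34*, *RAB40C* and *RAB9B* with FGF2 against developing RPE at E5, *RAB4A* in the same comparison at E4, *RAB28* and *RAB43* with FGF2 against 6hPR at E5, *RAB11A* at E5 against E4 in 6hPR, *RAB11A* and *RAB35* in 6hPR against developing RPE at E5, and the interactions of *HPS4* with 6hPR, of *HPS5*, *MYO5A* and *RAB3B* with 6hPR + FGF2 and of *BLOC1S2* with the FGF2 step. Counting error is largest for the members with the fewest reads, 7 of which have a mean under 50, and the depth at which it limits a call was not tested.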
